A study of Mus musculus with 6 samples.

Results

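The genes described here are 10 imprinted genes that act on embryonic growth (Igf2, Igf2r, H19, Dlk1, Peg3, Cdkn1c, Plagl1, Grb10, Mest and Ndn), measured in mouse cochleae that lacked or kept Igf1. The members were all probe sets annotated to 1 of these genes alone, and these were 23 of the 22626 probe sets tested and 9 of the 12393 genes. H19 had no probe set annotated to it alone, since its 1 probe set is also annotated to Mir675, so no value is given for it. The tested embryos were Igf-1-/- null (3 arrays) and were set against Igf-1+/+ wild type embryos (3 arrays). All were C57BL/6J embryos from crosses of heterozygous parents, taken at embryonic day 18.5. Each array held RNA pooled from 4 cochleae that kept the otic capsule, the bony and cartilaginous shell of the inner ear, and had been freed of vestibular tissue. The study compared the genotypes with 3 independent pools each, so p-values measure the spread between pools of several cochleae and not between single embryos. The null allele was carried by every tissue of the embryo, not by the cochlea alone. Precision is limited throughout by the small number of arrays.

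Imprinted genes are read from 1 parental copy, the other being silenced by marks set in the germ line. Several of them form opposed pairs in growth control: as a rule genes read from the paternal copy favour growth and genes read from the maternal copy restrain it. Igf1, the gene deleted here, encodes a growth factor that signals through the same receptor, Igf1r, as the imprinted ligand Igf2. In mouse, the zinc finger factor Plagl1 has been described as acting on a network of imprinted genes that includes Igf2, H19, Cdkn1c and Dlk1. The arrays do not tell the parental copies apart, so the values below are sums over both.

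None of the 9 measured genes passed the test between genotypes. Across all genes 0 of 12393 passed limma's test at an adjusted p of 0.05 (0%), and 0 of 22626 probe sets did (0%), while 612 genes (4.94%) had an unadjusted p under 0.05. Among the imprinted growth genes 1 of 9, Cdkn1c, had an unadjusted p under 0.05. The difference, null minus wild type on the log2 scale, was below 0 for 6 of the 9 genes and above 0 for 3, with a median of -0.13 against 0.0062 over all genes. In 2 of the 9, Cdkn1c and Plagl1, all 3 null arrays lay below all 3 wild type arrays, an arrangement found in 4.98% of all genes. In 0 of the 9 did all null arrays lie above, against 5.62% of all genes. The median was 0.058 when each array was centred on its median instead of quantile normalized, a scaling under which the median of all genes was 0.029. On the values as deposited the 9 genes had a median of -0.12, against -0.14 over all genes. Under both of these scalings the 9 genes thus lay above the median of all genes, and not below it. With quantile normalization their median was -0.014 without null replicate 1. That array held the lowest value of 5 of the 9 genes, and wild type replicate 3 held the highest value of 4. In bulk tissue such as this, fewer cells of a type and less RNA per cell cannot be told apart.

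All 9 genes gave strong signal. Their brightest probe sets ranked at or above the 95.2 percentile of genes by mean signal, and that of Igf2 stood at the 99.8 percentile. Signals of different probe sets depend on their sequences, so these ranks say that the genes were well detected and not which transcript was the more abundant. The SD between pools ran from 0.060 to 0.23 in null arrays and from 0.025 to 0.30 in wild type arrays, and it was larger in the null arrays for 7 of the 9 genes. No such share was worked out over all genes, so this count cannot be called a trait of these genes.

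**Figure D1:**
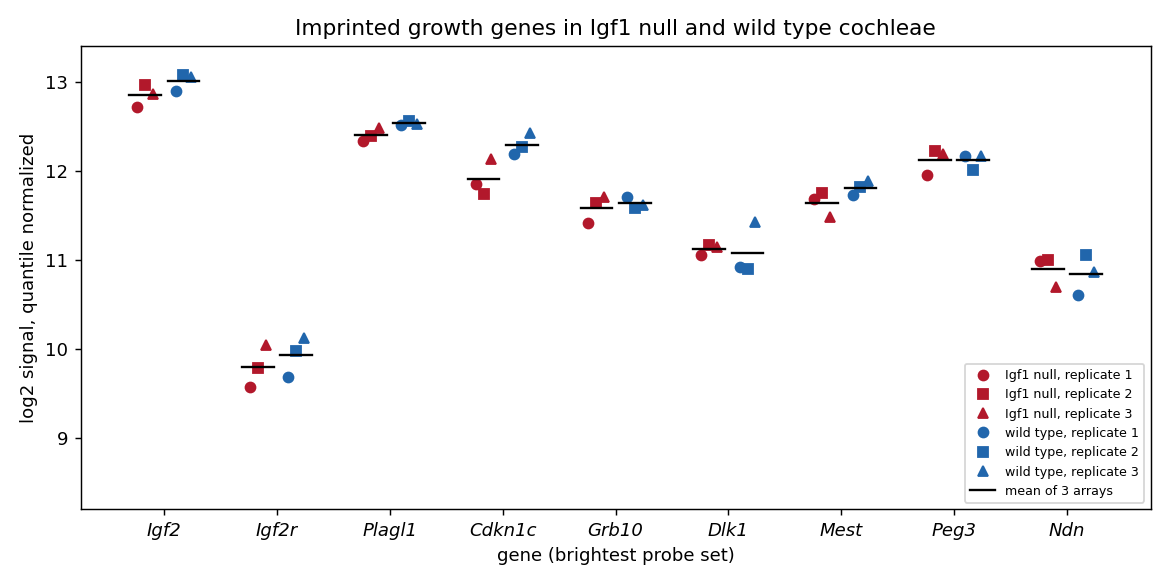
The quantile normalized log2 signal of the brightest probe set of each gene is plotted for every array, with null arrays in red left of wild type arrays in blue, marker shapes for the replicates and a black line at the mean of 3 arrays. The null points lie wholly below the wild type points for Cdkn1c and Plagl1, and the 2 groups overlap for the other 7 genes. Heights are not to be compared between genes.

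The deletion was first read from Igf1 itself, which had 3 probe sets. The probe set with the largest difference had log2 signals of 7.14, 6.92 and 7.13 in null arrays, against 7.93, 8.09 and 8.14 in wild type arrays. All 3 null values lay below all 3 wild type values, with a difference of -0.99 ± 0.12 (SE, n = 3 each, limma adjusted p = 0.600). The other Igf1 probe sets had differences of -0.46 ± 0.12 and -0.55 ± 0.15, again with all null arrays lower. None of the 3 passed the threshold, and no source used here says which of them lie in the deleted stretch. For the null samples 1 label field carries the wild type sign, while titles and descriptions give the null genotype, which was used. The same field gives 1 wild type sample a slightly different age.

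Igf2, the imprinted insulin-like growth factor made in large amounts by fetal tissues, had log2 signals of 12.72, 12.96 and 12.86 in null arrays, against 12.89, 13.08 and 13.05 in wild type arrays. The groups overlapped, because null replicate 2 exceeded wild type replicate 1. The means were 12.85 ± 0.12 in null and 13.01 ± 0.10 in wild type (SD, n = 3 each), a difference of -0.16 ± 0.12 (SE; limma adjusted p = 0.998). The 95% interval of the null over wild type ratio ran from 0.731 to 1.10, and with median centring the difference was 0.058. The second Igf2 probe set, which was dimmer, averaged 7.13 ± 0.30 in null and 7.43 ± 0.59 in wild type, and its difference of -0.30 ± 0.34 lay within its error.

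Igf2r, the receptor that binds Igf2 and takes it to lysosomes, had log2 signals of 9.58, 9.79 and 10.04 in null arrays, against 9.68, 9.97 and 10.12 in wild type arrays. The spread within each genotype exceeded the gap between them, with a difference of -0.13 ± 0.18 (SE; limma adjusted p = 0.998). Its second probe set had nearly the same difference, -0.12 ± 0.15. H19, the maternally read long RNA beside Igf2, is not reported for the reason given above.

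Igf1r, the receptor shared by the ligands Igf1 and Igf2, averaged 8.43 ± 0.042 in null and 8.34 ± 0.26 in wild type, a difference of 0.093 ± 0.16 at its brighter probe set. Its dimmer probe set differed by 0.031 ± 0.21. Of the wider list of ligands, receptors, binding proteins and genes that maintain imprints, 20 of 23 were measured, 8 with a difference above 0 and 12 below, and the median was -0.095. None of the 20 passed the adjusted test, and 2 had an unadjusted p under 0.05, Igf1 and Insr, the insulin receptor. Insr averaged 1.27 in null and 3.13 in wild type, and neither mean was above the background of the arrays, set at 3.87. Dnmt3l, a cofactor of the enzymes that set imprints in the germ line, had the next smallest p and was likewise not above background, at 1.16 in null and 0.071 in wild type. The RNA-binding proteins Igf2bp1 and Igf2bp3, which bind Igf2 transcripts, differed by -0.10 ± 0.18 and -0.055 ± 0.15.

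Plagl1, the zinc finger transcription factor also known as Zac1, had log2 signals of 12.33, 12.39 and 12.48 in null arrays, against 12.51, 12.56 and 12.53 in wild type arrays, at its brighter probe set. All null arrays lay below all wild type arrays by a small margin, with a difference of -0.13 ± 0.092 (SE, n = 3 each; limma adjusted p = 0.998), which was 0.080 with median centring. Its second probe set had log2 signals of 6.16, 6.32 and 5.94 in null arrays, against 7.03, 6.59 and 7.16 in wild type arrays. Here the null values were again all below the wild type values, and by more: the means were 6.14 ± 0.19 in null and 6.92 ± 0.30 in wild type (SD, n = 3 each). The difference was -0.78 ± 0.20, a ratio of 0.581 with a 95% interval of 0.410 to 0.823. Its unadjusted limma p was 0.0098 and its adjusted p was 0.887. It was the smallest adjusted p of the 23 probe sets, of which 2 had an unadjusted p under 0.05, where 4.99% of all probe sets did. The null arrays all lay below the wild type arrays in 3 of the 23 probe sets, against 5.30% of all probe sets.

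Because both Plagl1 probe sets sit on every array, their gap can be read within an array. The dimmer minus the brighter signal was -6.17, -6.08 and -6.53 in null arrays, against -5.49, -5.97 and -5.37 in wild type arrays. The null gaps were wider in all 3 arrays, by -0.65 on average, with an exact two-sided permutation p of 0.1, the smallest that 3 against 3 arrays can give. This contrast was not planned. It uses again the values of the dimmer probe set, whose groups were already apart, so it adds no separate support. The gap is a difference of unequal change between probe sets, and no source used here says which transcripts each one detects. The name of the brighter one ends in x_at, the maker's mark for probes that may also bind other transcripts.

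The start of Plagl1 is shown because its null arrays lay below the wild type arrays at both probe sets, and that of Peg3 because its groups had nearly equal means. Both are RefSeq promoter windows of build GRCm38.p6, from 250 bases before to 50 bases after the gene start. They read 5′ to 3′ on the gene's own strand, with CG dinucleotides, the sites that DNA methylation marks, in capitals. The Plagl1 window is chr10:13090582-13090881 on the plus strand, and the Peg3 window is chr7:6730370-6730669 on the minus strand.
Plagl1: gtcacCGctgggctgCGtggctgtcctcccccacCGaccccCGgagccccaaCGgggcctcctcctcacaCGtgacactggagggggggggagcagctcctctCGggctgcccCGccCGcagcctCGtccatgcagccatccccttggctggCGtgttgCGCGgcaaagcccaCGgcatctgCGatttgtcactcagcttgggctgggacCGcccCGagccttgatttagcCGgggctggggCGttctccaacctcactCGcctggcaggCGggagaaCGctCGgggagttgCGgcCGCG
Peg3: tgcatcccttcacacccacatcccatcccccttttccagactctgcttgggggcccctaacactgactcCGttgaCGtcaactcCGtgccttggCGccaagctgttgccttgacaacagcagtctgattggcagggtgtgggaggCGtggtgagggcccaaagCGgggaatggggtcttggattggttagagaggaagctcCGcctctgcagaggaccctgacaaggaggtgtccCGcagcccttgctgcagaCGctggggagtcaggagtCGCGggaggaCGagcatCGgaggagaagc
The Plagl1 window held 26 CG dinucleotides and the Peg3 window 13, against a median of 7 over 32851 mouse promoter windows. The table held windows for 8 of the 10 genes, 14 windows in all. Igf2r had 34, the single windows of Dlk1 and Ndn had 9 and 11, and those of Grb10 had 45 and 9. The windows of Mest had 8, 17 and 17, and those of Igf2 had 2, 14, 24 and 7. Cdkn1c and H19 were not among them. These arrays measured no methylation, so the sequences are given as a description of the loci.

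Cdkn1c, the cyclin-dependent kinase inhibitor p57, is a maternally read brake on the cell cycle. At its 1 probe set it had log2 signals of 11.85, 11.73 and 12.13 in null arrays, against 12.19, 12.26 and 12.42 in wild type arrays. The highest null value, in replicate 3, stood just under the lowest wild type value, in replicate 1. The means were 11.91 ± 0.20 in null and 12.29 ± 0.12 in wild type (SD, n = 3 each). The difference of -0.38 ± 0.15 (SE) was the largest among the 9 genes and corresponds to a ratio of 0.766 with a 95% interval of 0.594 to 0.988. The unadjusted limma p was 0.0430, the adjusted p was 0.991, and the exact two-sided permutation p was 0.1, the smallest possible. With median centring the difference was -0.21, and it stayed below 0 in all 17 other settings tried. Some of these, such as a balanced block, another variance model or a filter on level, could not change the estimate.

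Markers of cartilage lay in the same direction as Cdkn1c. All 11 of the cartilage genes listed were measured, all above background, and all 11 had a difference below 0, with a median of -0.32 and none past the adjusted test. Their summed signal ran from 14.44 to 14.94 on the log2 scale in null arrays and from 14.82 to 15.13 in wild type arrays. The 5 measured bone genes were also all below 0, with sums of 9.76 to 11.52 in null and 10.69 to 10.86 in wild type, as were the 7 endothelial genes, with sums of 9.59 to 9.80 in null and 9.82 to 9.98 in wild type. Of all genes, 6039 of 12393 were below 0. Other lists went both ways. Below 0 were 4 of 4 lung, 3 of 4 erythroid and 3 of 5 liver genes. Above 0 were 7 of 9 cochlear epithelial, 7 of 11 skeletal muscle and 5 of 6 adipocyte genes. So were 4 of 6 periotic mesenchyme, 5 of 7 pituitary and 3 of 4 vestibular genes. The neuron, macrophage and Schwann cell lists were evenly split. The part of any of these cell types in the Cdkn1c and Plagl1 values was not tested.

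Grb10, an adaptor that dampens signalling of the insulin and insulin-like growth factor receptors, had log2 signals of 11.41, 11.64 and 11.70 in null arrays, against 11.70, 11.58 and 11.61 in wild type arrays. The groups overlapped, with a difference of -0.049 ± 0.12 that was 0.053 with median centring and 0.035 without null replicate 1. Its second probe set gave the other direction, with 8.51, 8.47 and 8.63 in null arrays, against 8.40, 8.09 and 8.45 in wild type arrays. All null arrays lay above all wild type arrays there, as in 1 of the 23 probe sets and 5.53% of all probe sets, with a difference of 0.23 ± 0.14 (limma adjusted p = 0.980). The third had 6.52, 6.35 and 5.02 in null arrays, against 6.50, 6.29 and 6.55 in wild type arrays, with null replicate 3 far below the other 5 arrays and a difference of -0.48 ± 0.43.

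Dlk1, a transmembrane protein related to Notch ligands that restrains differentiation of precursor cells, had log2 signals of 11.05, 11.16 and 11.14 in null arrays, against 10.92, 10.89 and 11.42 in wild type arrays. The wild type arrays enclosed all null arrays, because replicate 3 stood apart from the others. The difference was 0.040 ± 0.17 (SE; limma adjusted p = 0.999), with a 95% interval of the ratio from 0.757 to 1.40. It was -0.045 on the values as deposited, and 0.21 without wild type replicate 3.

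Mest, a paternally read gene for a protein of the hydrolase fold that is named for mesoderm, had log2 signals of 11.68, 11.75 and 11.48 in null arrays, against 11.73, 11.81 and 11.88 in wild type arrays. Only null replicate 2 reached into the wild type range, and the difference was -0.17 ± 0.12 (SE; limma adjusted p = 0.998).

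Peg3, a paternally read zinc finger protein of the embryo and brain, had log2 signals of 11.95, 12.22 and 12.19 in null arrays, against 12.17, 12.01 and 12.17 in wild type arrays. The means of 12.12 ± 0.15 in null and 12.11 ± 0.090 in wild type (SD, n = 3 each) gave a difference of 0.0049 ± 0.12 (SE), which was -0.019 on the values as deposited. The 95% interval of the difference, -0.30 to 0.31, bounds the change at this precision and does not show that the groups were equal. The second probe set differed by -0.040 ± 0.14. The third was further apart, with 8.61, 9.03 and 8.38 in null arrays, against 9.11, 8.84 and 9.44 in wild type arrays, a difference of -0.46 ± 0.24 (limma adjusted p = 0.980) with overlapping groups.

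Ndn, which encodes necdin, a protein that holds neurons out of the cell cycle, had log2 signals of 10.98, 11.00 and 10.70 in null arrays, against 10.61, 11.05 and 10.87 in wild type arrays. The groups overlapped, with a difference of 0.050 ± 0.16 (SE) that was -0.031 on the values as deposited. Ndn had 8 probe sets, and the 5 brighter ones differed by 0.0091 to 0.22. The sixth averaged 3.85 in null, which was not above background, and 4.31 in wild type, and the remaining 2 were not above background in either genotype. The neuronal markers varied between pools of both genotypes, with sums of 11.82 to 12.76 in null and 11.73 to 13.50 in wild type, highest in wild type replicate 2, the array with the highest Ndn value of all 6.

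**Figure D2:**
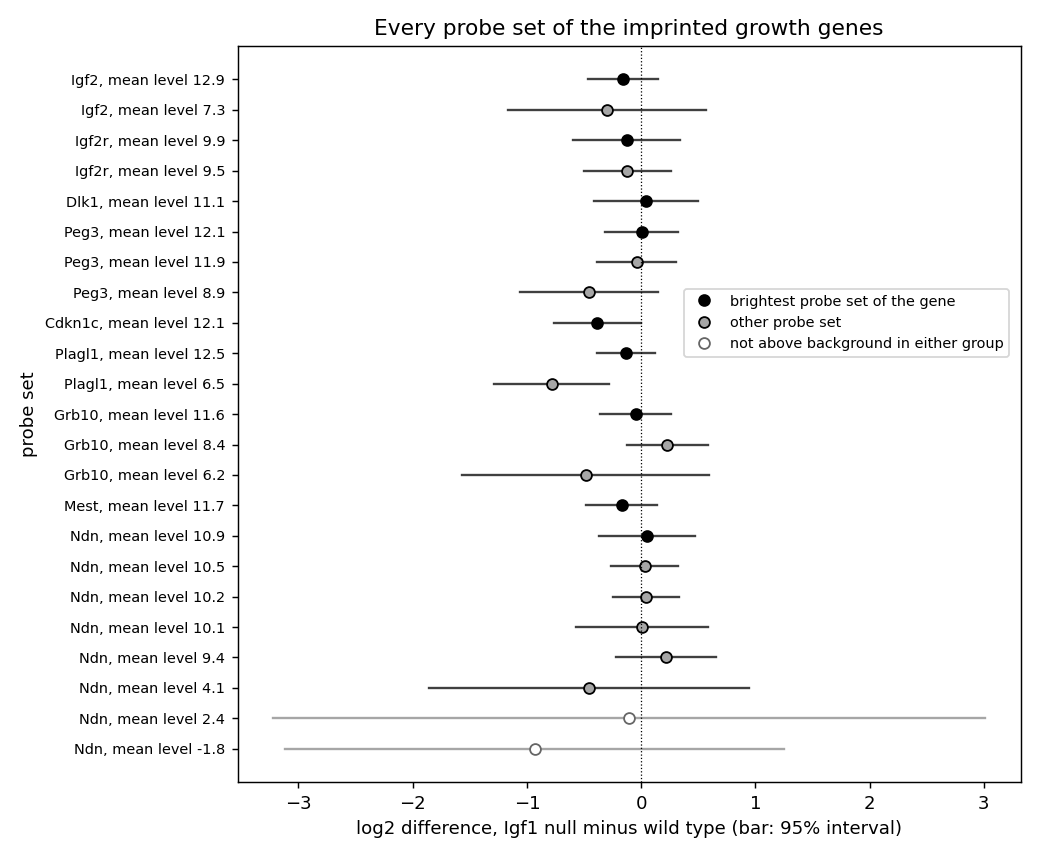
The log2 difference, null minus wild type, is plotted for all 23 probe sets with its 95% interval, 1 probe set per line, and the brightest probe set of each gene in black. The intervals of Cdkn1c and of the dimmer Plagl1 probe set lie below 0, the other 21 cross it, and the 2 open circles at the bottom are Ndn probe sets not above background.

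By parental origin, the 3 measured genes read from the maternal copy (Igf2r, Cdkn1c and Grb10) all had differences below 0, with a median of -0.13. Of the 6 genes read from the paternal copy (Igf2, Dlk1, Peg3, Plagl1, Mest and Ndn), 3 were below 0 and 3 above, with a median of -0.065. No test was made between these sets of few genes, and Grb10, Igf2 and Plagl1 turn to the other side of 0 with median centring. In mouse, Grb10 is read from the paternal copy in neurons, so that its place is that of most other tissues.

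The arrays carried a number in their titles, 14 for replicate 1 of each genotype and 16 for the others, whose meaning is not given. For Cdkn1c the difference was -0.33 between the arrays of number 14 and -0.41 between those of number 16. For the dimmer Plagl1 probe set the same values were -0.86 and -0.74. For Grb10 they were -0.29 and 0.072, for Peg3 -0.21 and 0.11, for Ndn 0.37 and -0.11, and for Dlk1 0.13 and -0.0065. These 4 genes had opposite signs in the 2 pairings of arrays, while Igf2, Igf2r, Plagl1, Mest and Cdkn1c had the same sign in both.

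**Figure D3:**
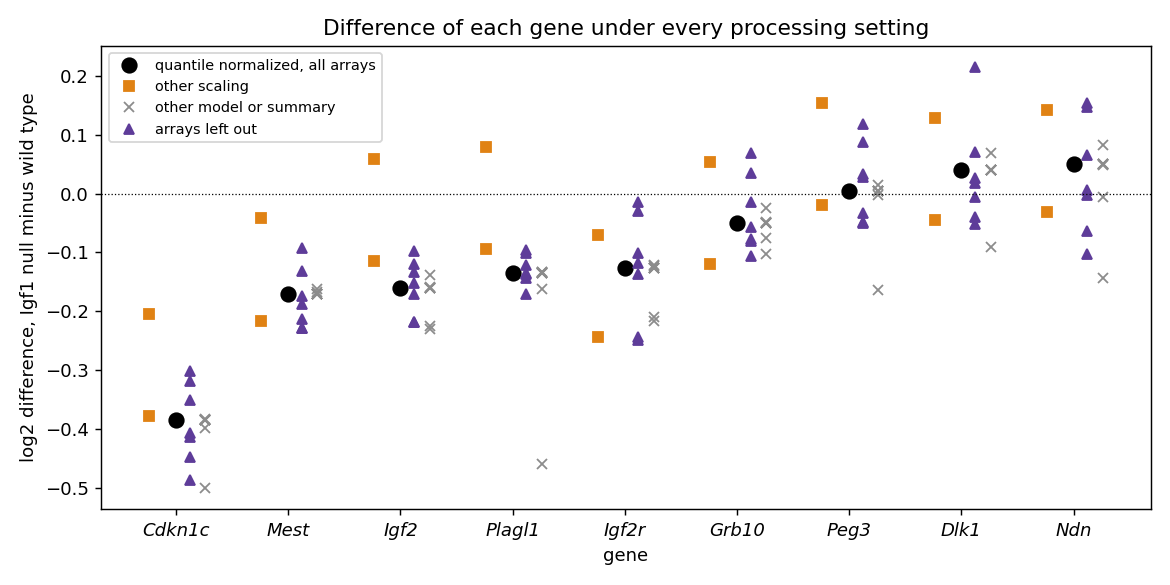
The log2 difference, null minus wild type, of the brightest probe set of each gene is plotted under quantile normalization of all arrays (black), under 2 other scalings (orange), with arrays left out (purple) and under other models or summaries (grey). The points of Cdkn1c, Mest and Igf2r lie below 0 in all settings, while those of the other 6 genes fall on both sides.

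The imprinted neighbours of these genes, taken as listed imprinted genes within 2 Mb in the RefSeq table, were read beside them. Meg3, a maternally read long RNA beside Dlk1, had 5 probe sets with differences from 0.13 to 0.52, all above 0. They were also above 0 in all 17 other settings, some of which could not change the estimates. The Meg3 probe set with the smallest p had log2 signals of 11.94, 12.14 and 11.92 in null arrays, against 11.30, 11.54 and 11.73 in wild type arrays. The null arrays lay wholly above the wild type arrays, with a difference of 0.48 ± 0.16 (SE; limma unadjusted p = 0.0255, adjusted p = 0.943). Its brightest probe set differed by only 0.13 ± 0.12. Rian, the next long RNA of that domain, had 9.34, 9.39 and 9.56 in null arrays, against 9.09, 8.97 and 9.34 in wild type arrays, a difference of 0.30 ± 0.14 with null replicate 1 just under wild type replicate 3. Within arrays, Dlk1 minus Meg3 at the brightest probe sets was -1.75, -1.86 and -1.80 in null arrays, against -1.80, -1.90 and -1.44 in wild type arrays. The mean difference of -0.088 had an exact two-sided permutation p of 0.9, and it became 0.053 without wild type replicate 3. On the values as deposited and with median centring it was -0.21, with an exact permutation p of 0.1, the smallest possible.

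Airn, the paternally read antisense RNA that silences Igf2r in mouse, had log2 signals of 8.75, 8.89 and 9.49 in null arrays, against 8.84, 8.51 and 8.66 in wild type arrays, a difference of 0.37 ± 0.23. Null replicate 3 stood highest and null replicate 1 lay inside the wild type range. In the shared neighbourhood of Igf2 and Cdkn1c, 11 other imprinted genes were measured and 6 were above background, of which none passed the adjusted test. The tetraspanin gene Cd81 differed by -0.031 ± 0.12, Nap1l4 by 0.091 ± 0.10, Tssc4 by -0.15 ± 0.16 and Th by -0.096 ± 0.94. Kcnq1, above background in wild type only, had the largest difference of these 6, -0.66 ± 0.52, and Osbpl5 is given below. Beside Peg3, Zim1 differed by -0.0026 ± 0.20 and Usp29 by 0.23 ± 0.39. Beside Ndn, Magel2, a related gene of the MAGE family, differed by -0.12 ± 0.15, Mkrn3 by -0.36 ± 0.36 and Peg12 by 0.10 ± 0.23. Beside Grb10, Ddc differed by -0.25 ± 0.64. Beside Mest, Copg2 differed by -0.085 ± 0.13, and beside Plagl1, Phactr2 differed by -0.17 ± 0.13.

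**Figure D4:**
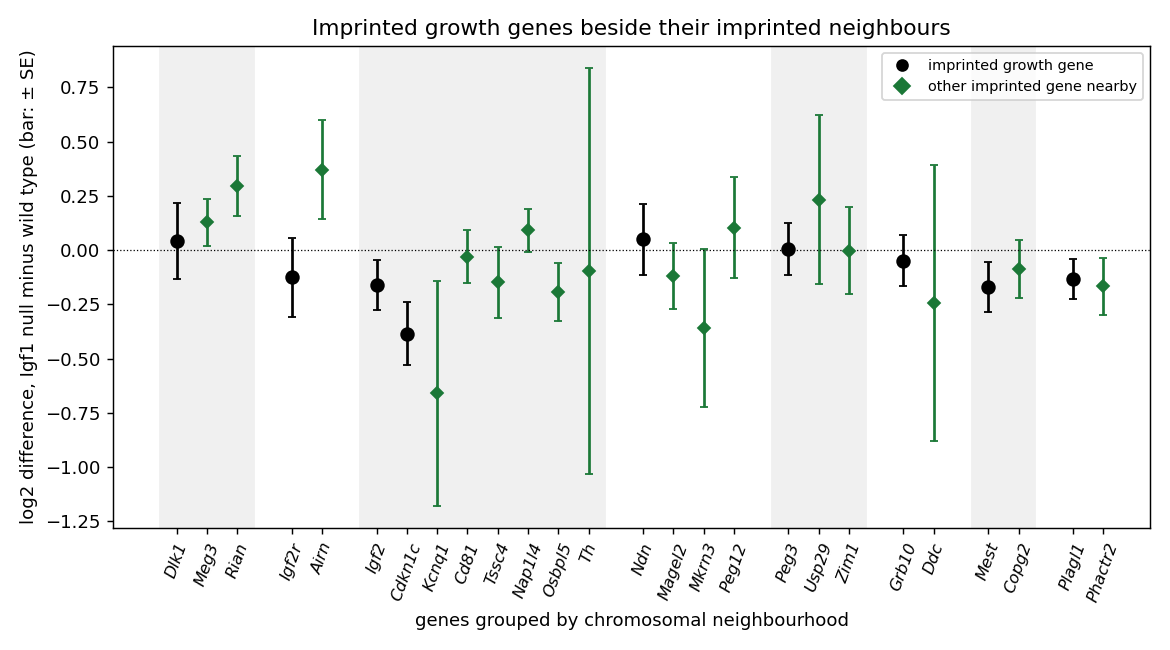
The log2 difference, null minus wild type, with its SE is plotted at the brightest probe set of each imprinted growth gene (black) and of each listed imprinted neighbour above background (green), grouped by chromosomal neighbourhood. Meg3, Rian and Airn lie above 0 and Cdkn1c lies lowest of the black points.

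Beyond these loci, 50 of 68 other imprinted genes were measured, 18 with a difference above 0 and 32 below, with a median of -0.072. None passed the adjusted test, and 0 had an unadjusted p under 0.05 by limma at the gene level. Of the 40 above background 13 were above 0 and 27 below. The smallest p among those above 0 belonged to Rian, Atp10a (0.39 ± 0.22), Airn, Meg3 and Nnat (0.41 ± 0.38), and among those below 0 to Tfpi2 (-0.61 ± 0.33), Slc38a4 (-0.27 ± 0.17), Osbpl5 (-0.19 ± 0.13), Dlx5 (-0.39 ± 0.28) and Dcn (-0.17 ± 0.13). Sgce, an imprinted sarcoglycan gene, differed by -0.041 ± 0.12, and Gnas, which encodes a G protein subunit, averaged 12.75 ± 0.064 in null and 12.82 ± 0.11 in wild type. Peg10, Phlda2 and Snrpn were not above background on average.

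The genes whose array profiles came closest to those of Igf2 and Cdkn1c were found by the root mean square gap between profiles centred on their own means, over 6 arrays. For Igf2 they were Nptn (0.0214), Mxra8 (0.0244), Gtf2ird1 (0.0346) and Nudt4 (0.0366). For Cdkn1c, which had the largest SD over the 6 arrays among the 9 imprinted growth genes but ranked at the 54.6 percentile of all genes, they were Dab2 (0.0539), P3h4 (0.0742), Dact1 (0.0790) and Zbed3 (0.0843). With 6 arrays and 12393 genes close profiles are easily found, and these are a description only.

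The cochlear label was read from epithelial markers, of which 9 of 10 were measured and all 9 were above background, with sums of 11.77 to 11.997 in null and 11.55 to 12.03 in wild type. Beside the endothelial list, the sums of 2 further marker lists, of the many read, did not overlap between genotypes. Among all single genes the null arrays all lay below in 4.98% and all above in 5.62%, and no such share was worked out for lists. The 4 measured vestibular markers summed to 10.82 to 11.73 in null and 10.13 to 10.56 in wild type, although the labels say that vestibular tissue was left out. Of these, Oc90, an otoconial protein gene, differed by 0.86 ± 0.30 and the transcription factor gene Hmx3 by 0.66 ± 0.19, with all null arrays above, while Hmx2 was not above background. Dlx5, the other member measured, went the other way, by -0.39 ± 0.28, and is also among the imprinted genes above. Oc90 was the brightest of the 4 and made up most of the sum. The 4 measured erythroid markers summed to 7.003 to 7.58 in null and 7.94 to 8.38 in wild type. Slc4a1, the red cell anion exchanger gene, differed by -1.76 ± 0.18 (SE; limma adjusted p = 0.378), but its null mean of 3.43 was not above background. Alas2, the brightest of the 4, differed by -0.79 ± 0.23, and Ermap and Hba-a1 were not above background. No gene of either list passed the adjusted test. Other tissue markers varied between pools of both genotypes. Pituitary markers summed to 5.26 to 12.96 in null and 7.90 to 8.22 in wild type, highest in null replicate 2. In that array Gh read 12.58, Pomc 10.15, Tshb 8.55 and Cga 8.31, each its highest value of the 6 arrays and above background. Prl, Fshb and Lhb were highest in other arrays, and Prl, Fshb and Cga were not above background on average. Skeletal muscle markers ran from 12.86 to 14.60 in null and from 12.85 to 14.59 in wild type, and lung markers from 5.25 to 8.42 in null and from 5.64 to 12.36 in wild type. Mean Y-linked signal was 1.06, 4.60 and 4.63 in null arrays, against -0.30, 4.80 and 0.60 in wild type arrays, so pools of both genotypes differed in Y-linked signal. The 3′ minus 5′ signal of the Actb control, which grows as RNA shortens, was 0.75, 0.95 and 1.12 in null arrays, against 0.73, 0.65 and 0.80 in wild type arrays. On the values as deposited it was 0.89, 0.86 and 1.08 in null arrays, against 0.76, 0.71 and 0.80 in wild type arrays. All null arrays thus lay above all wild type arrays before normalization. For the Gapdh control the normalized values overlapped, at 0.18, 0.36 and 0.43 in null arrays, against 0.21, 0.30 and 0.25 in wild type arrays. The part of these in the values above was not tested. Cdkn1c and the dimmer Plagl1 probe set kept their direction with each array left out. With Y-linked signal as a covariate they were -0.40 and -0.67. Leaving out 1 array cannot test what separated all arrays of the 2 genotypes. The vestibular, erythroid and endothelial sums did so, as did the Actb values as deposited.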

How the data were processed

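Biotin-labelled cRNA from 6 cochlear RNA pools was hybridised to 1 Affymetrix array each, per the labels' protocols. The deposited values are taken as log2 signal, a base read from their range; no source used here says how the authors summarised probes or corrected background. Array medians of the deposited values differed (5.61 to 6.37), so 22626 probe sets, without 64 controls, were quantile normalized, no filter being applied.

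Probe sets were named through the platform annotation, with symbols looked up in the RefSeq table of GRCm38.p6 (29 single-gene probe sets found no entry). A gene was represented by its brightest single-gene probe set; the 691 probe sets annotated to more than 1 gene entered no gene-level fit. Genotypes, taken from the titles, were compared two-sided with lmFit and eBayes of limma 3.58.1 (R 4.3.3), with genotype as the one term. Benjamini-Hochberg adjustment ran over every probe set, or every gene, tested, and the threshold was 0.05. The script was tested on simulated data. Single contrasts used exact permutation over 20 splits of the arrays, and the contrast between the Plagl1 probe sets was not planned. Differences, SE and p at the brightest probe sets of the imprinted genes come from the gene fit; those of the other probe sets, Igf1, Igf1r and Meg3 come from the probe-set fit, as do the intervals plotted for all probe sets.

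The plan had taken bacterial controls as background. They proved bright and graded (means of 4.29 to 8.48), so background was set at 3.87, the highest Y-linked value among the 3 arrays with least Y-linked signal, where the trp controls reached 2.46. This choice followed the data, and those arrays were chosen by that signal.

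The members and lists were chosen with earlier results of these data known. Genes named were all members; 5 other imprinted genes per direction by smallest p among those above background, and Meg3, Sgce, Peg10, Phlda2, Gnas, Nnat, Magel2, Snrpn; Igf1, Igf1r, Igf2bp1, Igf2bp3 and the 3 smallest p of their list; and 4 closest profiles. Neighbours beyond these were added after their values were seen, and those above background are given. Other scalings, models, filters, probe summaries and left-out arrays were tried.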

Additional observations from a re-analysis of the deposited data

How the results depend on the processing

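No imprinted growth gene and no probe set passed the adjusted threshold in any of the 16 alternatives run for each count. At an unadjusted p under 0.05 limma gave 828 to 1613 probe sets where all were tested, against 1130 in the fit reported. The filter on level, under which fewer probe sets were tested, gave 673. Over all genes 1, Hsd17b3, passed without null replicate 3 (0 to 1 over the left-out arrays). Whether the replicate numbers pair the samples is not clear: deviations of same-numbered arrays correlated at 0.040, 0.101 and 0.021 over all probe sets, and at 0.19, 0.38 and 0.14 over those above the median level, each being the highest for its null array, as a hint from the data and not from the design; with the replicate number as a block 0 probe sets passed and 1327 had an unadjusted p under 0.05. The median difference of the 9 genes was 0.058 with median centring (0.029 over all genes) and -0.12 on the deposited values (-0.14 over all genes). With an array left out it was -0.14 to -0.014, its value nearest 0 being without null replicate 1.

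Cdkn1c, Igf2r and Mest kept their sign in all 17 alternatives, Cdkn1c from -0.50 to -0.21 (adjusted p 0.539 to 1.00), and so did the dimmer Plagl1 probe set in 16, from -0.95 to -0.58 (adjusted p 0.577 to 1.00). Balanced blocks, another variance model and the filter on level could not change these estimates, so those settings say nothing on the sign. Signs turned as follows, and the cause was not tested. On the deposited values, whose median over all genes was -0.14, Dlk1 was -0.045, Peg3 -0.019 and Ndn -0.031. With median centring Igf2 was 0.058, Plagl1 0.080 and Grb10 0.053. With array weights Dlk1 was -0.092. With an array left out Dlk1 ran from -0.052 to 0.21, Peg3 from -0.051 to 0.088, Ndn from -0.064 to 0.15, Grb10 from -0.11 to 0.035, and Dlk1 minus Meg3 from -0.18 to 0.053. Without both arrays of title number 14 Dlk1 was -0.0066, Grb10 0.069 and Ndn -0.10. As a mean over probe sets Peg3 was -0.16 and Ndn -0.14. With Y-linked signal as a covariate, chosen after seeing the data, Peg3 was -0.0031 and Ndn -0.0060. Igf2 minus H19 within arrays was not run, because H19 had no probe set of its own.

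With 3 pools per genotype the 95% intervals of the 9 ratios reached from 0.594 to 1.40, and changes inside a gene's own interval are not excluded by these arrays.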
